A study of Sus scrofa with 6 samples.

Results

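Nuclear import receptors, the importins, were followed in porcine 2-cell embryos after knockdown of SIN3A. A set of 10 importin genes was listed by name around IPO5. IPO5 was selected on its lower abundance in the knockdown embryos of these same libraries, and the other genes were chosen by family. Of the 10 genes, 9 were found by name among the 17678 genes of the abundance table. KPNA2 was found as an unnamed row through its Ensembl identifier, ENSSSCG00000029005, so that all 10 could be described.

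The embryos came from crossbred pig oocytes matured in vitro, injected at metaphase II with siRNA and then activated parthenogenetically, so no sperm contributed to them. The NC group had received non-specific siRNA, and the KD group (labelled SIN3A_KD) siRNA against SIN3A, for which 3 siRNAs to different sites had been obtained. Both groups were collected as 2-cell embryos at 32 h after activation. Each group had 3 replicates of 20 pooled embryos, and poly(A) RNA of each pool was sequenced. At this stage the pig embryo still lives mainly on maternal messenger RNA, and SIN3A encodes the scaffold of a histone deacetylase complex.

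Proteins destined for the nucleus are recognised in the cytoplasm by importins and carried through the nuclear pore. In the classical route an importin alpha (a KPNA gene product) binds the nuclear localization signal of the cargo and is itself carried by importin beta, encoded by KPNB1. Other members of the importin beta family, the IPO gene products, bind cargo directly, and for IPO5 this includes ribosomal proteins and histones. The GTPase Ran releases the cargo inside the nucleus. KPNA7 is an importin alpha known for its restriction to oocytes and early embryos.

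Several members are close relatives, so the sequences that they share bear on how reads could be divided among them. In the RefSeq coding sequences of Sscrofa11.1, IPO5 and its relative RANBP6 were identical at 80.5% of the aligned bases, against 51.4% for IPO5 and IPO4 and 55.7% for IPO5 and KPNB1. IPO7 and IPO8 were identical at 66.3%. Among the importin alpha genes, KPNA6 was identical with KPNA5 at 73.9% and with KPNA1 at 73.7%, against 59.3% for KPNA7 and KPNA2, 55.4% for KPNA7 and KPNA6 and 54.5% for KPNA2 and KPNA6. The longest uninterrupted stretch shared by each of 3 pairs is shown in capitals, with the neighbouring coding bases in lower case. Only a read lying wholly inside such a stretch would match both relatives there without a difference. A read longer than the stretch also covers bases that differ between the relatives.
IPO5: gGGACAGATGGCTACAGATTTTGCACCTg
RANBP6: tGGACAGATGGCTACAGATTTTGCACCTa
IPO7: cgGGAGAAGATGCAGAATGTCATGCAGCaa
IPO8: caGGAGAAGATGCAGAATGTCATGCAGCca
KPNA6: cacTACTTTGGTGTAGAAGATGATGAtag
KPNA5: catTACTTTGGTGTAGAAGATGATGAccc
The shared stretch was 27 bases long for IPO5 and RANBP6, 26 bases for IPO7 and IPO8, and 23 bases for KPNA6 and KPNA5. KPNA6 and KPNA1 shared 27 bases across an exon boundary, and KPNA7 and KPNA2 shared 11. The IPO5 window lies at chr11:67042343-67042371 on the plus strand, in exon 12, and the RANBP6 window at chr1:216108894-216108922 on the plus strand, in exon 1. The IPO7 window lies at chr9:122704-122733 on the minus strand and the IPO8 window at chr5:43151912-43151941 on the plus strand, both in exon 20. The KPNA6 window lies at chr6:88651151-88651179 on the plus strand and the KPNA5 window at chr1:44903855-44903883 on the minus strand, both in exon 14. All of these are coding sequence. IPO4 was the only member whose gene overlapped another protein-coding gene in RefSeq, TM9SF1. The library kit is not described as marking the strand, so the value of IPO4 may hold reads of TM9SF1.

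The values are read estimates per gene that the authors had normalized between libraries, here called normalized abundance. As a check of the labels, SIN3A stood at 9.46%, 3.12% and 12.1% of its NC mean of 34576 in KD replicates 1 to 3. Depth, estimated from the steps between low values, was 7790000 reads in NC replicate 2 to 15800000 in KD replicate 2. The estimate is rough, as only 45.5% to 63.5% of values below 40 lay near such steps. Spearman correlations between libraries ranged from 0.982 to 0.987. Of 15 oocyte and early embryo markers, 12 were found, and they summed to 57993 to 63767 in NC and 57003 to 66380 in KD libraries. The largest were BMP15 at 19476 to 24182 and H1FOO at 18001 to 24453. Of the 12, 1 had a mean below 10, FIGLA at 4.3 to 11.7. Of 13 cumulus and granulosa markers, which would mark follicle cells left on the oocytes, 10 were found. These summed to 26.5 to 41.8 in NC and 32.4 to 78.7 in KD libraries, and 8 of them had a mean below 10, but no marker was at 0 in every library. The highest value of any of them was 23.4, for STAR in KD replicate 3, where CYP11A1 at 14.2, FOXL2 at 13.1 and CYP19A1 at 10.7 also had their highest values. NR5A2 reached 16.4, in KD replicate 1, and the other 5 did not exceed 2.92 in any library. The part of follicle cell RNA in the results was not tested.

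IPO5 (ENSSSCG00000009509) maps to chr11:67019299-67059375 (plus strand). The 3 NC libraries had a normalized abundance of 169, 134 and 155, and the 3 KD libraries one of 90.5, 57.4 and 95.6. Every KD library was below every NC library, as for 4.94% of the tested genes, and KD replicate 2, which also had the lowest SIN3A, was the lowest. A relation between IPO5 and the SIN3A left in single KD libraries was not tested. From a mean of 153 ± 17.3 in NC to one of 81.1 ± 20.7 in KD (SD, n = 3 each), IPO5 kept 53.1% of its abundance, with 59.2%, 37.6% and 62.6% in the single KD libraries. On the log2(value + 1) scale, KD minus NC was -0.93 (SE 0.22), here called the log2 fold change. Because IPO5 was chosen for this difference, these values are a description, and neither a p-value nor a call is given. Of the 11986 genes tested, 79 had a more negative log2 fold change. Groups that did not overlap, in either direction, were seen for 9.79% of the tested genes. As each library is poly(A) RNA from a pool of whole embryos, fewer cells with the transcript and less poly(A) transcript per cell cannot be told apart. The amount of transcript without regard to its poly(A) tail was not measured.

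**Figure D1:**
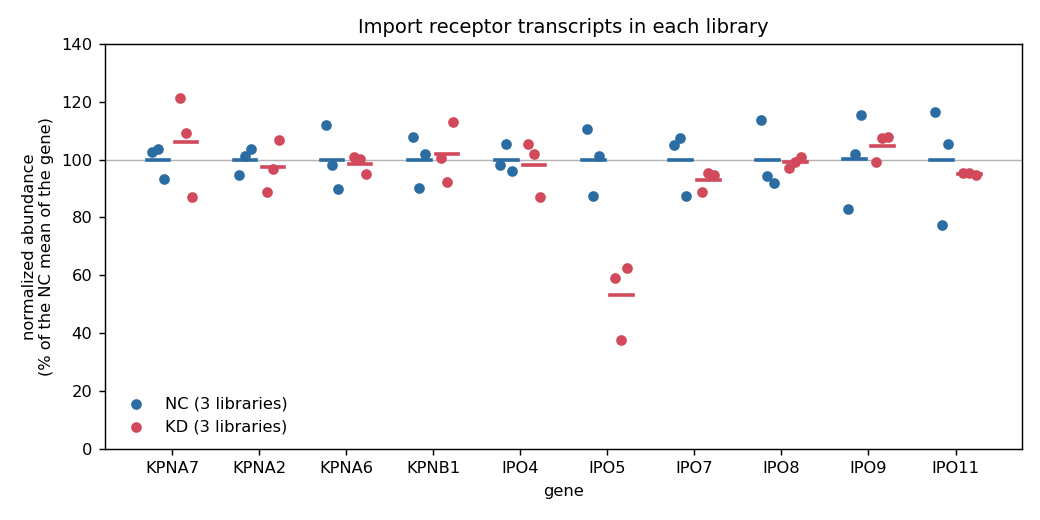
Normalized abundance of the 10 importins in each library, as a percentage of the gene's own NC mean (vertical axis). Points are the 3 NC and 3 KD libraries and horizontal bars are group means. The KD libraries of IPO5 lie at 37.6% to 62.6%, and for the other 9 genes the KD and NC points overlap.

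The other 9 importins had values in KD that overlapped those in NC. None of the 9 was called by limma at an adjusted p below 0.05, against 19 of the 11986 genes tested (0.159%), and 0 of the 9 had an unadjusted p below 0.05, against 4.61%. All adjusted p values of the 9 were 0.997 (limma with Benjamini-Hochberg adjustment over all genes tested). Their log2 fold changes ranged from -0.10 to 0.08 with a median of -0.01, where the median of all tested genes was 0.003 and the middle 50% of genes lay between -0.12 and 0.12. The 95% confidence intervals, given with each gene, differed in width. Their lower limits ranged from -0.44 for IPO11 to -0.15 for KPNA7, and their upper limits from 0.15 for KPNA2 to 0.38 for IPO9. The KD mean was below the NC mean for 6 of the 9, and 49.4% of all tested genes had a negative log2 fold change. In none of the 9 did the groups part, and the exact two-sided permutation tests gave p values from 0.4 to 1.0, where 3 libraries against 3 allow no p below 0.1.

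Among the adaptors, the importin alpha genes, KPNA7 (ENSSSCG00000007607) maps to chr3:6167382-6201282 (minus strand). Read estimates of KPNA7 were 39717, 40155 and 36124 in NC replicates 1 to 3, against 46896, 42290 and 33707 in the KD replicates. The KD libraries spread around the NC libraries, with replicates 1 and 2 above and replicate 3 below all of them. KPNA7 had a log2 fold change of 0.07, with an SE of 0.11 and a 95% confidence interval of -0.15 to 0.30 (limma, adjusted p = 0.997). Its sign changed to -0.01 under quantile normalization.

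KPNA2 maps to chr12:14283092-14296749 (plus strand) and encodes an importin alpha that is abundant in dividing cells. The abundance of KPNA2 was 7215, 7715 and 7893 in NC replicates 1 to 3, against 6745, 7371 and 8132 in the KD replicates. The lowest and the highest of the 6 values were both in KD embryos. KPNA2 had a log2 fold change of -0.04, with an SE of 0.09 and a 95% confidence interval of -0.23 to 0.15.

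KPNA6 (ENSSSCG00000034017), an importin alpha with wide tissue expression, maps to chr6:88611128-88656281 (plus strand). The abundance of KPNA6 was 7253, 6370 and 5829 in NC replicates 1 to 3, against 6540, 6491 and 6151 in the KD replicates. All 3 KD values fell inside the range of the NC values. KPNA6 had a log2 fold change of -0.01, with an SE of 0.09 and a 95% confidence interval of -0.21 to 0.18.

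KPNB1 (ENSSSCG00000017514), the importin beta that carries importin alpha with its cargo, maps to chr12:23915783-23945407 (plus strand). In the single libraries its abundance was 469, 393 and 443 in NC replicates 1 to 3, against 437, 402 and 492 in the KD replicates. The highest value was in KD and the lowest in NC embryos. Here the log2 fold change was 0.03 (SE 0.13), with a 95% confidence interval of -0.24 to 0.30.

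Of the receptors that bind cargo directly, IPO11 (ENSSSCG00000016938) is the member whose NC mean was nearest to that of IPO5. It maps to chr16:41121123-41335373 (plus strand) and imports ubiquitin-conjugating enzymes. For IPO11 the abundance was 171, 114 and 155 in NC replicates 1 to 3, against 140, 140 and 139 in the KD replicates. The 3 KD values lay within the NC range, and 95.3% of the NC mean of 147 ± 29.2 (SD, n = 3) remained. IPO11 had a log2 fold change of -0.05 (SE 0.18), and its 95% confidence interval of -0.44 to 0.34 was the widest among the 9 genes.

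IPO7 (ENSSSCG00000028886) and IPO8 (ENSSSCG00000000534) are related to each other, and IPO7 carries ribosomal proteins and histone H1 among other cargo. IPO7 maps to chr9:111657-163137 (minus strand) and IPO8 to chr5:43099749-43182807 (plus strand). The normalized abundance of IPO7 was 509, 522 and 424 in NC replicates 1 to 3, against 430, 462 and 460 in the KD replicates. That of IPO8 was 6073, 5034 and 4895 in NC replicates 1 to 3, against 5178, 5284 and 5385 in the KD replicates. For both genes the KD values lay inside the NC range. IPO7 had a log2 fold change of -0.10 (SE 0.12, 95% confidence interval -0.36 to 0.16) and IPO8 one of -0.01 (SE 0.09, 95% confidence interval -0.20 to 0.19).

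IPO4 (ENSSSCG00000002000), a carrier of histones, maps to chr7:75109844-75118739 (plus strand). Libraries of IPO4 had 991, 1064 and 968 in NC replicates 1 to 3, against 1064, 1026 and 878 in the KD replicates, and the groups overlapped. IPO4 had a log2 fold change of -0.03 (SE 0.11, 95% confidence interval -0.25 to 0.19). IPO9 (ENSSSCG00000039843), which binds histones H2A and H2B, maps to chr10:24110126-24150294 (plus strand). The abundance of IPO9 was 260, 319 and 361 in NC replicates 1 to 3, against 310, 336 and 338 in the KD replicates. The NC values of IPO9 enclosed all the KD values. IPO9 had a log2 fold change of 0.08 (SE 0.14, 95% confidence interval -0.23 to 0.38).

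Levels of different genes were compared as normalized abundance per kilobase of the longest RefSeq mRNA. In NC embryos KPNA7 was the most abundant of the 10, at 20556 ± 1176 (SD, n = 3) per kilobase, and it held place 11 among 13358 genes with a RefSeq length. KPNA2 followed at 3269 ± 151 and place 77. Next were IPO8 at 991 ± 120 and KPNA6 at 924 ± 102 (SD, n = 3 each), whose NC values overlapped. IPO4 stood at 254 ± 12.7, apart from its neighbours on both sides. IPO7 at 78.5 ± 8.57, KPNB1 at 70.3 ± 6.23 and IPO9 at a mean of 61.7, with single values from 51.2 to 71.1, followed, and each of these overlapped with its neighbour among them. IPO5 at 45.3 ± 5.13 and IPO11 at 34.0 ± 6.76 (SD, n = 3 each) came last, and both were above the median of 22.1 over all genes with a length. Their NC values only just failed to overlap, with 39.8 as the lowest for IPO5 and 39.6 as the highest for IPO11. The level of KPNA7 was 454 times that of IPO5.

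In KD embryos the first 8 places were held by the members in the same order. IPO5, at 26.8, 17.0 and 28.3 per kilobase, then lay below IPO11, at 32.4, 32.5 and 32.2, in every KD library. This change of place restates the fall for which IPO5 was chosen. The RefSeq model of IPO5 has 3374 bases, of which 3294 are coding, so it leaves little room for untranslated sequence, whereas KPNA6 has 1611 coding of 7021 bases. Per kilobase of coding sequence, 4 of the 10 members kept their place. KPNA6 then stood above IPO8, KPNB1 above IPO7, and IPO11 above IPO5, at NC means of 50.2 ± 9.97 for IPO11 and 46.4 ± 5.26 for IPO5 (SD, n = 3 each).

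**Figure D2:**
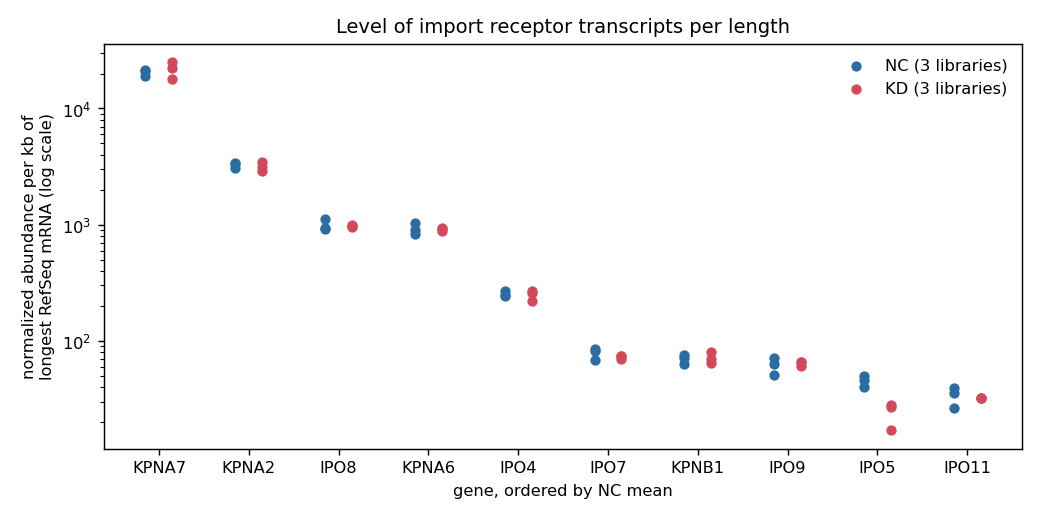
Normalized abundance per kilobase of the longest RefSeq mRNA (logarithmic vertical axis) of the 10 importins, ordered by NC mean. Points are single libraries of 3 NC and 3 KD replicates. KPNA7 stands at 19205 to 21348 in NC, and IPO5 is the member whose KD points lie below its NC points.

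Within the importin alpha family of 7 genes, KPNA7 made up 79.0%, 79.3% and 77.1% of the summed level per kilobase in NC and 82.8%, 80.7% and 75.1% in KD replicates 1 to 3. KPNA2 was next with 12.5% ± 1.02 in NC and 11.9% ± 2.54 in KD (SD, n = 3 each). KPNA3 held 4.99% ± 0.373 and KPNA6 3.52% ± 0.298 in NC, and KPNA1, KPNA4 and KPNA5 each held at most 0.537% in every library. The family composition of the groups overlapped for KPNA7 and KPNA2. With coding length the share of KPNA7 in NC was 67.4% ± 1.22 (SD, n = 3), and KPNA7 was still the first.

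**Figure D3:**
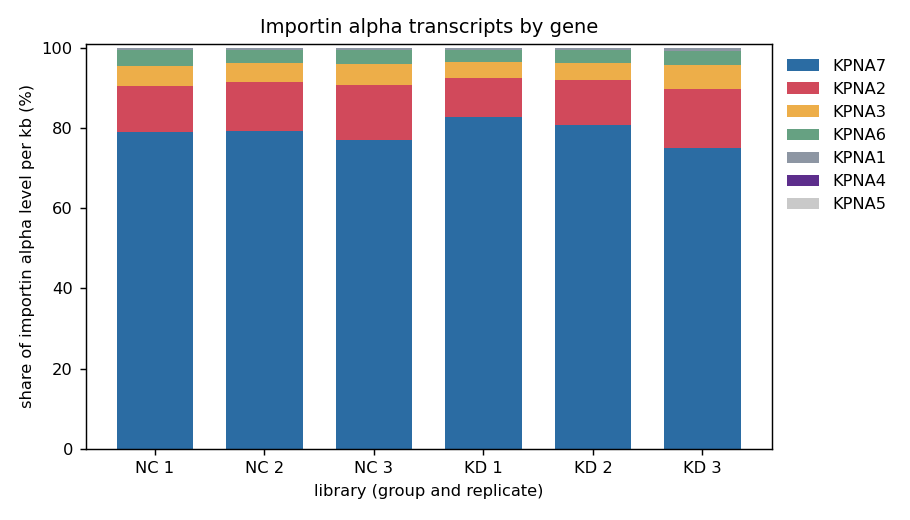
Share of each importin alpha gene in the summed level per kilobase of the 7 genes (vertical axis, percent), in each of the 3 NC and 3 KD libraries. KPNA7 fills 75.1% to 82.8% of every bar.

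Among 12 import receptors of the importin beta family, IPO8 and TNPO1 together carried most of the summed level per kilobase, at 39.1% ± 1.54 and 27.5% ± 0.870 in NC (SD, n = 3 each). Their order turned with coding length, with 31.7% ± 1.02 for IPO8 and 42.1% ± 1.02 for TNPO1. TNPO1 is the transportin that carries RNA-binding proteins. IPO5 made up 1.81%, 1.64% and 1.92% of this sum in NC and 1.08%, 0.693% and 1.15% in KD replicates 1 to 3. With coding length its shares were lower, at 0.863%, 0.789% and 0.928% in NC and 0.518%, 0.333% and 0.553% in KD. On both scales the lower share in KD restates the fall for which IPO5 was chosen. Per kilobase of mRNA, the share of IPO8 in KD, 39.8% ± 0.905 (SD, n = 3), lay within its range in NC.

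RANBP6, the relative of IPO5, was barely above the minimum mean of 10, with a normalized abundance of 17.7, 17.5 and 16.3 in NC replicates 1 to 3, against 1.95, 20.1 and 5.49 in the KD replicates. One KD library was above and the others below the NC libraries. The log2 fold change of RANBP6 was -1.30 (SE 0.64), with a 95% confidence interval of -2.65 to 0.06 (limma, adjusted p = 0.997). In KD replicate 2, where IPO5 was lowest, RANBP6 was highest. An exchange of reads between IPO5 and RANBP6 was not tested.

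The rest of the transport machinery was described by 4 lists. Of the 54 genes tested in these lists, 0 were called by limma, against 0.159% of all genes tested, and 1, NUP54, had an unadjusted p below 0.05, against 4.61%. The groups did not overlap for 4 genes, TNPO2, NUP37, NUP54 and RAE1, which is 7.41% of the 54 against 9.79% of all genes tested. The medians of the lists, given next, were small and moved with single libraries.

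Of the 11 other import receptors 7 had a negative and 4 a positive log2 fold change, with a median of -0.05, which was 0.015 without KD replicate 2 and -0.113 without KD replicate 3. They included the importin alpha genes KPNA1, KPNA3, KPNA4 and KPNA5, and the highest log2 fold change was 0.15 for KPNA5. TNPO2, a relative of TNPO1, had 769, 805 and 777 in NC replicates 1 to 3, against 840, 902 and 844 in the KD replicates, and a log2 fold change of 0.14 (SE 0.10; limma, adjusted p = 0.997).

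The 7 exportins, which move cargo out of the nucleus, had a median log2 fold change of 0.04, which turned to -0.013 without KD replicate 1 and -0.006 without KD replicate 2. CSE1L, which returns importin alpha to the cytoplasm, had the highest at 0.11 (SE 0.13), and XPO1, the export receptor of proteins with leucine-rich signals, the lowest at -0.11 (SE 0.11).

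Of the 8 genes of the Ran cycle, 6 had a negative log2 fold change, and the median was -0.11, with a range of -0.164 without NC replicate 1 to -0.074 without KD replicate 2. RAN had 827, 659 and 650 in NC replicates 1 to 3, against 737, 563 and 639 in the KD replicates, with a log2 fold change of -0.14 (SE 0.13). RCC1, the exchange factor that loads Ran with GTP on chromatin, stood at 0.05 (SE 0.20) and RANGAP1, which activates its GTPase in the cytoplasm, at -0.10 (SE 0.22). NUTF2, the import factor of Ran itself, which was matched by identifier, stood at -0.17 (SE 0.12). The lowest of the list was RANGRF at -0.26 (SE 0.26) and the highest RANBP2 at 0.09 (SE 0.10).

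Of 30 nucleoporins 28 were found and tested, with a median log2 fold change of 0.02, which turned to -0.021 without NC replicate 2, -0.016 without NC replicate 3 and -0.002 without KD replicate 1. NUP54, a protein of the central pore channel, had the lowest log2 fold change. Its libraries had 516, 538 and 505 in NC replicates 1 to 3, against 412, 461 and 436 in the KD replicates, and KD minus NC was -0.25 on the log2 scale (SE 0.12; limma, adjusted p = 0.997). The highest was that of NUP93, a scaffold nucleoporin, at 0.17 (SE 0.12).

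**Figure D4:**
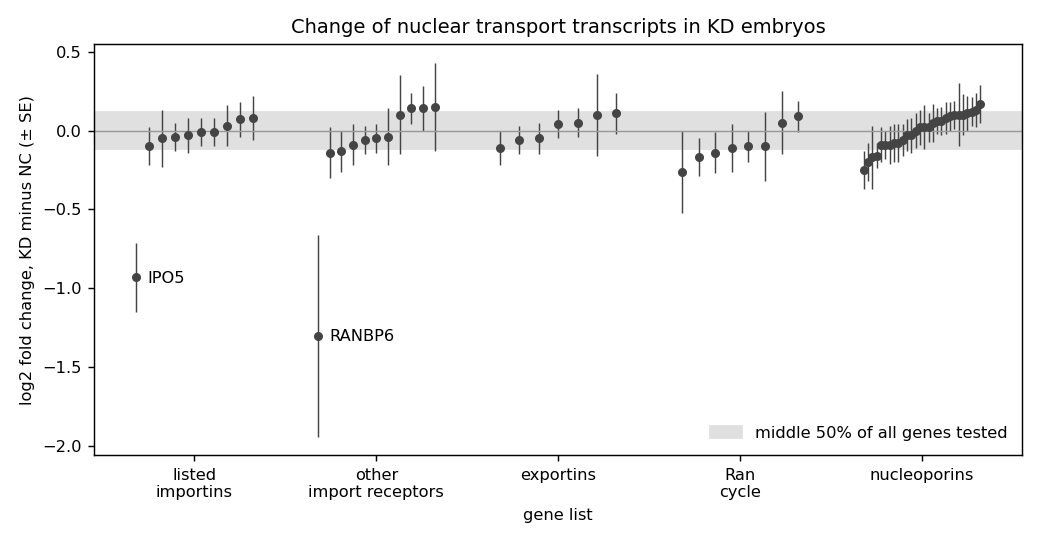
Log2 fold change of KD against NC on the log2(value + 1) scale, with SEs, for the 10 listed importins and the genes of the 4 nuclear transport lists. The grey band is the middle 50% of all tested genes, from -0.12 to 0.12, and IPO5 at -0.93 and RANBP6 at -1.30 lie far below it. RANBP6 was barely above the minimum mean of 10, its groups overlapped, and its 95% confidence interval was -2.65 to 0.06.

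The libraries in which IPO5 was high or low were also compared with those of other genes. Over the 6 libraries, the Pearson correlation of log2 values with IPO5 lay between -0.36 for IPO9 and 0.30 for IPO7 among the other members. Of 6373 named genes with a mean of at least 100, the 5 most like IPO5 were FAXDC2 with a correlation of 0.999, CNOT6 with 0.992, DIMT1 with 0.989, VGLL3 with 0.988 and CEP83 with 0.987. CNOT6, a deadenylase subunit, had 2057, 1549 and 1667 in NC replicates 1 to 3, against 870, 522 and 1079 in the KD replicates, and FAXDC2 had 636, 598 and 615 in NC and 528, 465 and 538 in KD. As for IPO5, KD replicate 2 was the lowest library of all 5 genes, which is part of the likeness by which they were picked. These correlations rest on 6 points, they include the group difference by which IPO5 was chosen, and they are the highest of many, so they are given as a description.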

How the data were processed

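Messenger RNA of 3 NC and 3 KD pools of 2-cell embryos was sequenced. Per the labels, reads were assigned to transcripts of Sscrofa11.1 with Salmon 0.14.1 and DESeq2 was used by the authors. The annotation release and read length are not given in the sources used here. The deposited table holds a normalized signal per gene. Between 45.5% and 63.5% of values below 40 lay within 0.05 of a whole multiple of the library's step, too few for whole reads to be recovered, so count models were not used. The spike-in mRNAs were not used here, so total mRNA per embryo was not assessed.

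The test was that of limma 3.58.1 (R 4.3.3), applied to log2(value + 1) of genes whose mean reached 10, with a variance trend and Benjamini-Hochberg adjustment over all of them. This scale understates changes of low genes. Permutation tests were exact and two-sided (scipy 1.17.1). The fit was also run on simulated counts with the same spread setting for every gene, unlike the normalized values here. That run checks the code and not the calls in these data. P-values refer to the spread between pools, which limma draws towards the trend over all genes. The animals of the pools are not named.

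Importins and gene lists were chosen with earlier results of these data known. Named genes are the 10 importins, SIN3A, the highest and lowest member of each list, called members, Ran cycle core genes, RANBP6 and the 5 genes most like IPO5. TNPO1, TNPO2, NUP37, RAE1, BMP15, H1FOO, FIGLA, STAR, CYP11A1, FOXL2, CYP19A1 and NR5A2 were named after their values were seen. Positions and lengths are from RefSeq, which matched 75.6% of genes by symbol. POM121 and SEH1L were not found by name. Coding sequences were aligned with biopython 1.88.

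Alternatives were other pseudocounts, filters and scalings, no variance trend, a robust empirical Bayes step, the replicate number as a block, and leaving out each library.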

Additional observations from a re-analysis of the deposited data

How the results depend on the processing

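The log2 fold change of IPO5 was negative in all 15 alternatives run, and ranged from -1.07 to -0.70 when 1 library was left out. It was nearest to 0 without KD replicate 2. As every KD library lay below every NC library, leaving out a library or changing the pseudocount could not turn its sign. IPO5 was chosen for its fall, so these values are a description. Same-numbered libraries had correlations of 0.109, 0.111 and 0.0872 after subtraction of the group means. The mean for different numbers was -0.0513. The subtraction ties that mean to the same-numbered values, so it is no independent comparison. The labels give replicate numbers only and do not state whether equal numbers are pairs. These correlations were not taken to decide it, and the main fit had no block. The replicate block gave 26 genes past the adjusted p, of which 17 passed the log2 fold change of 0.8 as well, against 19 and 15 without it.

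Leaving out 1 library gave 11 to 19 genes past the adjusted p and 10 to 14 past both thresholds. It gave 12 genes without NC replicate 2 or NC replicate 3, and 11 without KD replicate 1 or KD replicate 2. Both counts fell to 0 when the variance trend was left out of limma, and 622 genes then had an unadjusted p below 0.05. The cause was not tested.

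The other 9 importins were not called in any of 135 comparisons with an alternative, and the lowest adjusted p of limma was 0.79. In 14 of these the sign changed. Across the 6 fits that left out 1 library, the log2 fold change lay from -0.09 to 0.05 for IPO4, from -0.19 to -0.05 for IPO7, from -0.07 to 0.09 for IPO8, from -0.05 to 0.19 for IPO9, from -0.22 to 0.07 for IPO11, from -0.05 to 0.10 for KPNB1, from -0.11 to 0.03 for KPNA2, from -0.09 to 0.07 for KPNA6 and from -0.03 to 0.21 for KPNA7. KPNA7 was at -0.01 with quantile normalization. The cause was not tested. The 4 nuclear transport lists had 0 called members in every alternative. Their median log2 fold changes ranged from -0.113 to 0.015 for other import receptors, -0.013 to 0.027 for exportins, -0.164 to -0.074 for the Ran cycle and -0.021 to 0.042 for nucleoporins when 1 library was left out. The exportin median was also -0.005 with a minimum mean of 100 and -0.002 with quantile normalization. Of the 10 importins, 4 kept their place in the order per kilobase with coding length and 8 with the KD means.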
